A study of Danio rerio with 16 samples.

Results

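Zebrafish larvae exposed to perfluorobutanoic acid (PFBA) at 10 µg/L were compared with larvae exposed to it at 0.1 µg/L, the highest dose of the study against the lowest. The comparison takes 8 of the 16 RNA sequencing libraries, 5 at 10 µg/L and 3 at 0.1 µg/L. Both doses' tables share 24691 genes of the 26183 in the series. Of the 26183 genes, 19092 had enough reads to be tested. Larvae were whole Danio rerio, 7 days old after 7 days of exposure, with 5 libraries from PFBA at 10 µg/L, 4 from 1 µg/L, 3 from 0.1 µg/L and 4 from controls given the solvent dimethyl sulfoxide alone. The labels name no strain, sex or number of larvae per tube, nor the time of day of freezing, and do not say that replicates came from separate cultures, so p-values measure only the spread between these samples.

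PFBA is a short-chain perfluoroalkyl acid, a class of industrial chemicals that persist in water. In fish larvae, nearly every tissue holds a circadian clock in which the proteins Clock and Bmal1 switch on genes for their own repressors (Per, Cry, Rev-erb and Bhlhe), and light reaches that clock directly. Immediate early genes such as nr4a1 and fosab are switched on within minutes by neural activity, hormones or stress, and chaperone genes by unfolded protein.

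Levels are in CPM, read counts divided by the library's size after scaling by the trimmed mean of M values (TMM). Every log2 fold change is 10 over 0.1 µg/L. Means are given ± SD over the 5 or 3 libraries. Values at 10 µg/L are listed from library 1 to 5 and those at 0.1 µg/L from library 1 to 3. The 5 libraries at 10 µg/L held 9708464 to 13089123 reads, and the 3 at 0.1 µg/L held 13862232, 13005032 and 10678812.

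Library 3 at 0.1 µg/L and all libraries at 10 µg/L differed from the remaining 2 of the lowest dose, libraries 1 and 2. Their TMM factors were 0.58 and 0.74, against 1.09 in library 3 and 0.93 to 1.14 at 10 µg/L. On the first principal component of the 8 libraries, which held 54.1% of the variance, the 10 µg/L libraries lay between -64.6 and -10.1, and those at 0.1 µg/L at 158, 85 and -39.2. Library 3 at 10 µg/L lay alone at -101 on the second component (17.3% of the variance), with the others at 10 µg/L between -14.6 and 34. Of 34 organ markers 26 were tested, and 24 of these had a read in all 8 libraries. The 2 others, mylpfa of fast muscle and alas2 of red blood cells, had no read in at least 1 library. At an edgeR adjusted p below 0.05, 1 of the 26 was higher and 5 were lower at 10 µg/L. Of all tested genes 3.26% and 7.34% were. Libraries 1 and 2 at 0.1 µg/L were both above the 10 µg/L range in 12 of the 26 markers. Library 3 at 0.1 µg/L was within it in 15 of them, against 65.5% of all tested genes. Among the 5 libraries at 10 µg/L, library 3 was the lowest in 14 markers. No share over all tested genes was computed for the 12 or the 14, so neither is read as particular to these markers. In whole larvae, fewer cells of a type and less RNA per cell cannot be told apart. The part of these libraries' make-up in the results was not tested beyond leaving them out.

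In all, 2025 genes (10.6% of those tested) passed an adjusted p below 0.05 (edgeR quasi-likelihood test, Benjamini-Hochberg), 623 higher (3.26%) and 1402 lower (7.34%) at 10 µg/L. By at least 2-fold, 201 were higher and 1042 lower. The groups did not overlap in CPM for 501 of the 623 higher (2.62% of all tested) and 695 of the 1402 lower genes (3.64%). Of all tested genes 13.2% had groups that did not overlap, 6.41% higher and 6.81% lower. Genes called lower were short, with a median length of 1864 bases, against 3439 bases for those called higher and 2455 for all tested genes. Without libraries 1 and 2 at 0.1 µg/L the median log2 fold change was 0.01 in the shortest 25% of genes and 0.02 in the longest 25%, against -0.21 and 0.21 with all libraries. In the shortest 25% of genes 11.7% were called lower, and in the longest 25% it was 4.25%. With the trend with length removed from each library, a step added after seeing the data, 1888 genes (9.89%) were called, 508 higher and 1380 lower. Scaling by library size alone moved the median log2 fold change of all genes to 0.46, against 0.08 with TMM, and turned the split to 926 higher and 269 lower genes (6.26% of all). Directions are thus relative to the TMM scale. That scaling ended 16 of the 90 calls named below, with edgeR adjusted p-values up to 0.188: clocka, per1a, fosab, socs3a, g6pca.2, ddit4, irf9, trib3, arr3b, opn4xb, prdm1b, c9, krt18b, cyp1a, nefma and nefla. Without the filter on low counts 1745 of 26183 genes (6.66%) were called.

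The number of calls hung on libraries 1 and 2 at 0.1 µg/L. It was 87 (0.456%) without library 1, 268 (1.4%) without library 2 and 7162 (37.5%) without library 3 at 0.1 µg/L. Leaving out libraries 1, 2, 3, 4 and 5 at 10 µg/L in turn gave 1423 (7.45%), 607 (3.18%), 1217 (6.37%), 2413 (12.6%) and 1034 (5.42%). Such counts for single gene lists below are to be read beside these shares. They pool both directions unless directions are named. Without both libraries 1 and 2 at 0.1 µg/L, a fit called "against library 3 alone" below, that library is assumed to vary like the other groups. In it 0 genes passed edgeR's adjusted test and each call named below ended. At an unadjusted p below 0.05 it had 988 genes (5.17%), 2.19% higher and 2.99% lower. The fit of the compared groups alone, named after each gene group below, called 154 genes (0.847%), and 150 of these were among the 2025. It ended 43 of the 90 calls named below (edgeR adjusted p up to 0.137). Library 3 at 0.1 µg/L was the one closest to the 10 µg/L libraries. It was below their whole range in 503 of the 623 genes called higher (80.7%). In 702 of the 1402 called lower (50.1%) it was above that range. Over all tested genes it was below in 16.6%, within in 65.5% and above in 17.9%. The calls thus held genes in which all 3 libraries at 0.1 µg/L lay beyond the 10 µg/L range, and genes in which only libraries 1 and 2 did. Library 3 was itself in the fit that made the calls. Larger shares among called genes were therefore partly built in and are no separate support for the calls. A set of 82 calls, 11 higher and 71 lower, stayed called with each of the 8 libraries left out in turn. Library 3 at 0.1 µg/L was outside the 10 µg/L range in 81 of them, a share raised by the same selection.

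**Figure D1:**
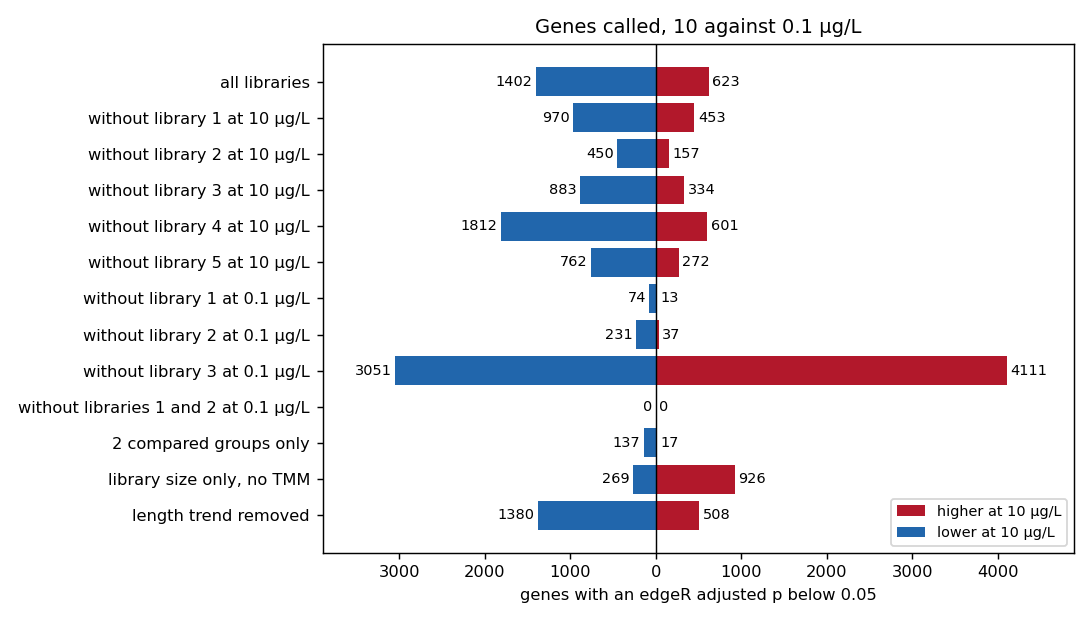
Genes with an edgeR adjusted p below 0.05, 10 against 0.1 µg/L, with all libraries and under other settings; bars to the right count genes higher and bars to the left genes lower at 10 µg/L. The count was 623 and 1402 with all libraries, 13 and 74 with library 1 at 0.1 µg/L left out, and 0 with library 2 left out as well.

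Circadian clock genes differed between the doses: every called activator gene was higher at 10 µg/L, and called repressor and output genes moved both ways. Of 8 tested clock activators 4 rose, against 3.26% of all genes, and 0 fell. rorcb had 237, 364, 601, 105 and 265 CPM, mean 314 ± 185, at 10 µg/L, against 44.1, 41.5 and 62.3 CPM, mean 49.3 ± 11.3, at 0.1 µg/L. rorcb encodes a nuclear receptor of the Ror family, which activates the Bmal1 gene, and its groups did not overlap (log2 fold change 2.67 with SE 0.46, edgeR adjusted p = 0.00587). arntl1a had 64, 77.7, 99.5, 75.2 and 78.2 CPM, mean 78.9 ± 12.9, at 10 µg/L, against 32.3, 39.5 and 33.6 CPM, mean 35.1 ± 3.85, at 0.1 µg/L. Every library at 10 µg/L was above the highest at 0.1 µg/L in this gene for Bmal1 (log2 fold change 1.17 with SE 0.21, edgeR adjusted p = 0.00682). Its paralog arntl1b had 31.1, 24, 24.5, 14.5 and 27.1 CPM, mean 24.2 ± 6.14, at 10 µg/L, against 1.12, 3.84 and 10.8 CPM, mean 5.27 ± 5.02, at 0.1 µg/L, also without overlap (log2 fold change 2.17 with SE 0.47, edgeR adjusted p = 0.0131), and here libraries 1 and 2 at 0.1 µg/L were lower than library 3. clocka, which encodes the Clock partner of Bmal1, lay at 15.3 to 32 CPM at 10 µg/L, against 2.36, 6.54 and 14.2 CPM at 0.1 µg/L (log2 fold change 1.57, edgeR adjusted p = 0.0388); without TMM its groups overlapped. The median log2 fold change of the 8 activators was 1.21, and 0.53 against library 3 alone. The calls of rorcb (0.0551), arntl1a (0.0622), arntl1b (0.0541) and clocka (0.193) ended without library 1 at 0.1 µg/L (edgeR adjusted p in parentheses). Those of arntl1b (0.0688) and clocka (0.141) ended without library 2 at 0.1 µg/L. That of clocka also ended without library 1 at 10 µg/L (0.0671), library 2 at 10 µg/L (0.0875) or library 5 at 10 µg/L (0.0685). arntl1b (0.0946) and clocka (0.127) were not called with the compared groups alone (edgeR adjusted p in parentheses). Calls among clock activators numbered 0, 2 and 8 without libraries 1, 2 and 3 at 0.1 µg/L in turn, and 3 to 5 without 1 library at 10 µg/L, fewest without library 1, 2 or 5. Activator calls were 3 higher and 0 lower with library size alone, and 2 higher and 0 lower with the compared groups alone.

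Of 34 tested clock repressors and output genes 5 rose and 6 fell, 14.7% and 17.6%, against 3.26% and 7.34% of all genes. The cryptochrome gene cry3b had 253, 283, 508, 240.2 and 299.5 CPM, mean 317 ± 109.7, at 10 µg/L, against 29.2, 36.5 and 48 CPM, mean 37.9 ± 9.46, at 0.1 µg/L. Its lowest library at 10 µg/L was far above its highest at 0.1 µg/L (8.34-fold higher, log2 fold change 3.06 with SE 0.42, edgeR adjusted p = 0.00299). fbxl3l, which encodes an F-box protein related to the one that marks cryptochromes for breakdown in mammals, had 11.8, 14.6, 23.8, 5.13 and 12.8 CPM, mean 13.6 ± 6.72, at 10 µg/L, against 0.746, 1.45 and 1.38 CPM, mean 1.19 ± 0.388, at 0.1 µg/L. It was low but without overlap (log2 fold change 3.49 with SE 0.57, edgeR adjusted p = 0.00571). per2, a repressor gene that light induces in zebrafish, was 1.66-fold higher, at 152, 159, 181, 171 and 184 CPM, mean 169 ± 13.9, at 10 µg/L, against 94.6, 107 and 104 CPM, mean 102 ± 6.47, at 0.1 µg/L (log2 fold change 0.73 with SE 0.14, edgeR adjusted p = 0.00771).

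Among those that fell, nr1d1 encodes Rev-erb alpha, the repressor of the Bmal1 gene. nr1d1 had 30.5, 43.8, 52.3, 43 and 29.9 CPM, mean 39.9 ± 9.59, at 10 µg/L, against 546, 558 and 657 CPM, mean 587 ± 61.1, at 0.1 µg/L. The groups were far apart, and with TMM all 3 libraries at 0.1 µg/L were alike (14.7-fold lower, log2 fold change -3.88 with SE 0.83, edgeR adjusted p = 0.013). Without TMM those 3 had 317, 414 and 715 CPM, against 32.3 to 54.9 CPM at 10 µg/L. The 4 control libraries lay at 547 to 762 CPM and the 4 at 1 µg/L spread over 19 to 617 CPM. bhlhe41 had 16.8, 18, 26.8, 21.9 and 26.3 CPM, mean 21.9 ± 4.59, at 10 µg/L, against 149, 126 and 110.1 CPM, mean 128 ± 19.6, at 0.1 µg/L. This gene, for a repressor of clock-driven transcription, was 5.85-fold lower (log2 fold change -2.55 with SE 0.43, edgeR adjusted p = 0.00587). dbpb, a PAR bZIP output gene, followed the same pattern with 19.1, 18.6, 24.6, 15.8 and 22.1 CPM, mean 20.01 ± 3.4, at 10 µg/L, against 139, 109.7 and 93 CPM, mean 114 ± 23.1, at 0.1 µg/L (log2 fold change -2.51 with SE 0.45, edgeR adjusted p = 0.00663). The period gene per1a had 6.27, 9.45, 5.02, 2.16 and 4.53 CPM, mean 5.48 ± 2.67, at 10 µg/L, against 15.9, 22.9 and 80.1 CPM, mean 39.6 ± 35.2, at 0.1 µg/L, and library 3 was the highest there (log2 fold change -2.85 with SE 0.85, edgeR adjusted p = 0.0413). Without TMM the groups of per1a overlapped. per1a lost its call in each of the 8 fits that left out 1 library (edgeR adjusted p up to 0.163). The median over these 34 genes was -0.32, and 0.18 with library size alone, with members on both sides of 0. cry3b, fbxl3l and bhlhe41 stayed called in every fit that left out 1 library, with edgeR adjusted p-values up to 0.0445. The calls of per2 (0.0656), nr1d1 (0.0715) and dbpb (0.0533) ended without library 1 at 0.1 µg/L (edgeR adjusted p in parentheses). per2 (0.0634) was not called with the compared groups alone (edgeR adjusted p in parentheses). Calls among clock repressors and output genes numbered 3, 7 and 17 without libraries 1, 2 and 3 at 0.1 µg/L in turn, and 8 to 10 without 1 library at 10 µg/L, fewest without library 2 or 5. Repressor and output calls were 6 higher and 4 lower with library size alone, and 2 higher and 6 lower with the compared groups alone.

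Of 12 pineal and melatonin genes 2 rose (16.7%, against 3.26% of all genes) and 0 fell (against 7.34%). aanat2 had 13.1, 16.3, 26.4, 14 and 16.7 CPM, mean 17.3 ± 5.29, at 10 µg/L, against 4.72, 4.67 and 4.82 CPM, mean 4.74 ± 0.0787, at 0.1 µg/L. aanat2 encodes the enzyme that sets the rate of melatonin synthesis in the pineal gland. It was 3.64-fold higher (log2 fold change 1.86 with SE 0.30, edgeR adjusted p = 0.00531). Its call stayed in every fit that left out 1 library (edgeR adjusted p up to 0.0371). With TMM its 3 libraries at 0.1 µg/L were nearly equal, and without TMM they had 2.74, 3.46 and 5.25 CPM. crx, a transcription factor gene of photoreceptors and pineal cells, lay at 183, 266, 369, 269 and 219 CPM, mean 261 ± 70.0, at 10 µg/L, against 144, 139 and 170.1 CPM, mean 151 ± 16.8, at 0.1 µg/L (log2 fold change 0.79 with SE 0.21, edgeR adjusted p = 0.0275). The call of crx (0.156) ended without library 1 at 0.1 µg/L (edgeR adjusted p in parentheses). That of crx ended without library 2 at 0.1 µg/L (0.123), library 2 at 10 µg/L (0.0602) or library 3 at 10 µg/L (0.0527). crx (0.113) was not called with the compared groups alone (edgeR adjusted p in parentheses). Calls among pineal and melatonin genes numbered 1, 1 and 4 without libraries 1, 2 and 3 at 0.1 µg/L in turn, and 1 to 2 without 1 library at 10 µg/L, fewest without library 2 or 3. Pineal calls were 2 higher and 0 lower with library size alone, and 1 higher and 0 lower with the compared groups alone.

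In GRCz11, as the deposited tables place them, rorcb (ENSDARG00000017780) lies on chromosome 2 from 49417900 to 49454451, fbxl3l (ENSDARG00000037738) lies on chromosome 14 from 22367361 to 22390821 and aanat2 (ENSDARG00000079802) lies on chromosome 3 from 54887782 to 54893706. Of the genes that fell, bhlhe41 (ENSDARG00000041691) lies on chromosome 18 from 16125852 to 16130165, dbpb (ENSDARG00000057652) lies on chromosome 16 from 13599693 to 13613475 and nmrk2 (ENSDARG00000067848) lies on chromosome 2 from 55982300 to 55990329. Reads were summed per gene, so exons, introns and UTRs cannot be told apart.

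**Figure D2:**
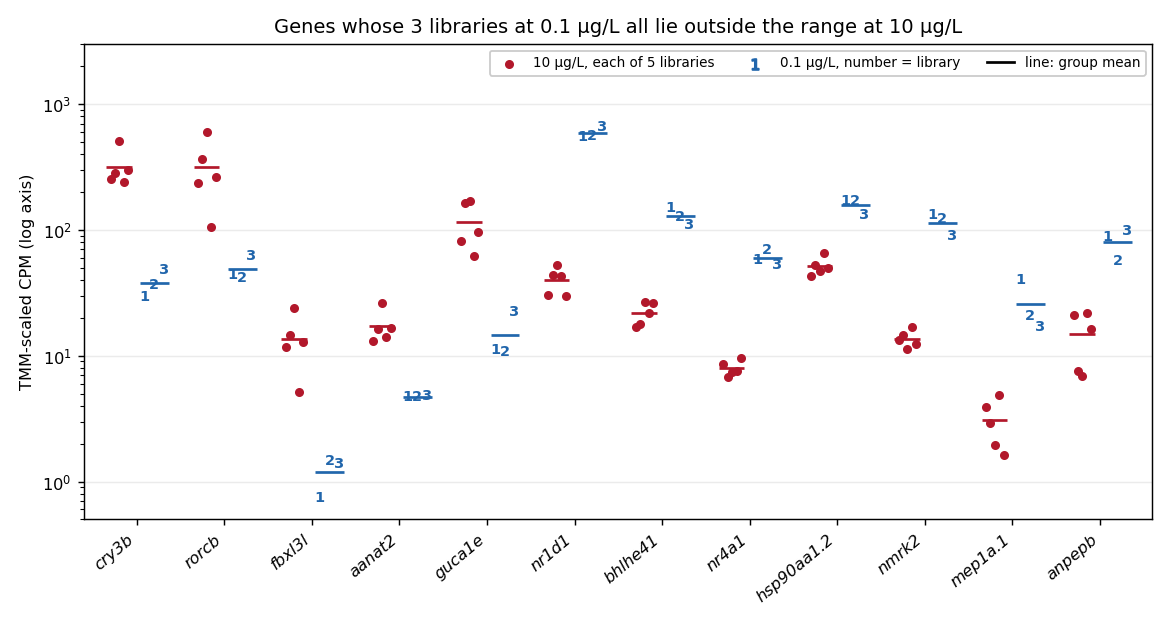
TMM-scaled CPM on a log axis of 12 genes, with a red point for each of the 5 libraries at 10 µg/L, a blue number for each library at 0.1 µg/L, and a line at each group's mean. In nr4a1 the 10 µg/L libraries lay between 6.74 and 9.62 CPM, below all 3 at 0.1 µg/L, and no pair of groups overlaps in the 12 genes.

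Retinal genes were called in both directions. Of 68 tested photoreceptor genes 12 rose (17.6%, against 3.26% of all genes) and 3 fell (4.41%, against 7.34%), a balance that turned in the fit of the compared groups alone. The list had a median log2 fold change of 0.52 and of 0.16 against library 3 alone. guca1e had 82, 165, 169, 62.4 and 96 CPM, mean 115 ± 49.1, at 10 µg/L, against 11.06, 10.8 and 22.3 CPM, mean 14.7 ± 6.57, at 0.1 µg/L. guca1e belongs to the guanylate cyclase activating proteins, which reset the light response of photoreceptors, and it was 7.76-fold higher with no overlap (log2 fold change 2.96 with SE 0.38, edgeR adjusted p = 0.00298). neurod1, a transcription factor gene of developing neurons and photoreceptors, had 659.8, 925, 1408, 742 and 826 CPM, mean 912 ± 294, at 10 µg/L, against 412, 422 and 366 CPM, mean 399.8 ± 29.4, at 0.1 µg/L (log2 fold change 1.19 with SE 0.23, edgeR adjusted p = 0.00939). Among cone opsin genes, chosen after their values were seen, opn1sw1 of ultraviolet cones had 4871, 8765, 9377, 10176 and 6223 CPM, mean 7882 ± 2242, at 10 µg/L, against 2864, 2552 and 4384 CPM, mean 3267 ± 980.3, at 0.1 µg/L (log2 fold change 1.27 with SE 0.29, edgeR adjusted p = 0.0172). The green cone opsin gene opn1mw1 had 1478, 2414, 2601, 2657 and 1815 CPM, mean 2193 ± 521, at 10 µg/L, against 955, 1067 and 1288 CPM, mean 1104 ± 169.5, at 0.1 µg/L (log2 fold change 0.99 with SE 0.23, edgeR adjusted p = 0.0185). The groups of opn1sw1 and opn1mw1 did not overlap, although the highest of the 3 libraries at 0.1 µg/L came close to the lowest at 10 µg/L. The photoreceptor markers rho (log2 fold change 0.18, edgeR adjusted p = 0.693) and gnat2 (0.33, edgeR adjusted p = 0.416) were not called. In both, all 3 libraries at 0.1 µg/L lay within the 10 µg/L range. opn1mw1 has close copies in the genome, so its counts are less certain.

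arr3b and cnga3b fell in the same libraries. arr3b, an arrestin gene of cones, had 91.9, 145, 156, 161 and 127 CPM, mean 136 ± 28, at 10 µg/L, against 409, 358 and 425 CPM, mean 398 ± 35.2, at 0.1 µg/L (log2 fold change -1.55 with SE 0.33, edgeR adjusted p = 0.0133). cnga3b, which encodes a subunit of the cone cyclic nucleotide-gated channel, had 3.13, 4.96, 6.39, 2.79 and 4.1 CPM, mean 4.28 ± 1.46, at 10 µg/L, against 43.1, 29.1 and 21.1 CPM, mean 31.1 ± 11.2, at 0.1 µg/L (log2 fold change -2.86 with SE 0.59, edgeR adjusted p = 0.0113). The summed level of the list was 20983 to 41424 CPM at 10 µg/L, against 24476, 21043 and 22480 CPM at 0.1 µg/L, so the groups overlapped in the sum while single members separated. guca1e stayed called in every fit that left out 1 library, with edgeR adjusted p-values up to 0.0246. The calls of neurod1 (0.0643), opn1sw1 (0.114), opn1mw1 (0.131), arr3b (0.0797) and cnga3b (0.0884) ended without library 1 at 0.1 µg/L (edgeR adjusted p in parentheses). Those of opn1sw1 (0.0937) and opn1mw1 (0.084) ended without library 2 at 0.1 µg/L. neurod1 (0.0813), opn1sw1 (0.106) and opn1mw1 (0.105) were not called with the compared groups alone (edgeR adjusted p in parentheses). Calls among photoreceptor genes numbered 1, 4 and 32 without libraries 1, 2 and 3 at 0.1 µg/L in turn, and 7 to 18 without 1 library at 10 µg/L, fewest without library 2. Photoreceptor calls were 16 higher and 1 lower with library size alone, and 1 higher and 4 lower with the compared groups alone. Higher calls were 1, 2 and 28 of the counts without a library at 0.1 µg/L.

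Other called genes that rose included tent5ab, opn4xb and prdm1b. opn4xb, a melanopsin gene, had 20.9, 40.1, 29.2, 12.3 and 22.6 CPM, mean 25 ± 10.4, at 10 µg/L, against 0.995, 0.726 and 12.1 CPM, mean 4.59 ± 6.47, at 0.1 µg/L (log2 fold change 2.4 with SE 0.65, edgeR adjusted p = 0.0291); without TMM its groups overlapped. prdm1b, a zinc finger repressor gene, had 17.2, 15.3, 10.9, 11.2 and 15 CPM, mean 13.9 ± 2.75, at 10 µg/L, against 0, 1.25 and 5.51 CPM, mean 2.25 ± 2.89, at 0.1 µg/L, and no read in library 1 at 0.1 µg/L (log2 fold change 2.57 with SE 0.67, edgeR adjusted p = 0.0261). tent5ab, of a family of poly(A) polymerases, had 85, 119, 136, 80.9 and 96.7 CPM, mean 104 ± 23.4, at 10 µg/L, against 12.1, 9.03 and 35.3 CPM, mean 18.8 ± 14.4, at 0.1 µg/L (log2 fold change 2.45 with SE 0.43, edgeR adjusted p = 0.00594). In all 3 genes libraries 1 and 2 at 0.1 µg/L were below library 3. The calls of opn4xb (0.163), prdm1b (0.08) and tent5ab (0.0568) ended without library 1 at 0.1 µg/L (edgeR adjusted p in parentheses). Those of opn4xb (0.099) and prdm1b (0.11) ended without library 2 at 0.1 µg/L. Those of opn4xb (0.0689) and prdm1b (0.0566) ended without library 2 at 10 µg/L. opn4xb (0.137) and prdm1b (0.124) were not called with the compared groups alone (edgeR adjusted p in parentheses).

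Immediate early genes were lower at 10 µg/L: 16 of 42 fell (38.1%, against 7.34% of all genes) and 2 rose. nr4a1 had 8.62, 6.74, 7.48, 7.56 and 9.62 CPM, mean 8 ± 1.12, at 10 µg/L, against 58.1, 69.4 and 52.5 CPM, mean 60.0 ± 8.63, at 0.1 µg/L. nr4a1, which encodes an orphan nuclear receptor, was 7.48-fold lower (log2 fold change -2.90 with SE 0.33, edgeR adjusted p = 0.00171). Its 2 groups lay far apart, with little spread in either on the TMM scale. Without TMM nr4a1 had 33.7, 51.5 and 57.1 CPM at 0.1 µg/L. Its level was 47 to 54.5 CPM in controls. mcl1b had 29.5, 25, 27.4, 34.4 and 28.4 CPM, mean 28.9 ± 3.45, at 10 µg/L, against 113, 78.3 and 55.8 CPM, mean 82.3 ± 28.7, at 0.1 µg/L. mcl1b encodes an inhibitor of apoptosis and was 2.84-fold lower (log2 fold change -1.51 with SE 0.22, edgeR adjusted p = 0.00379). fosab, the Fos gene of the AP-1 factor, was at 34.7, 41.5, 43.2, 43.1 and 48.1 CPM, mean 42.1 ± 4.85, at 10 µg/L, against 77.1, 102 and 91.5 CPM, mean 90.3 ± 12.7, at 0.1 µg/L (log2 fold change -1.1 with SE 0.28, edgeR adjusted p = 0.0244); without TMM its groups overlapped. klf2a, a Kruppel-like factor gene induced by blood flow, was at 3.87 to 5.73 CPM at 10 µg/L, against 22.9, 19.4 and 7.84 CPM at 0.1 µg/L (log2 fold change -1.74, edgeR adjusted p = 0.00594). gadd45bb, a stress-induced growth arrest gene, was at 8.06 to 12.2 CPM at 10 µg/L, against 33.7, 20.1 and 15.9 CPM at 0.1 µg/L (log2 fold change -1.26, edgeR adjusted p = 0.00682). egr4 did not pass, at 70.6 to 80.6 CPM at 10 µg/L, against 94.5, 89 and 88 CPM at 0.1 µg/L (log2 fold change -0.27, edgeR adjusted p = 0.238), and without TMM its groups overlapped. The median of the list was -0.63, and -0.44 against library 3 alone. nr4a1 and mcl1b stayed called in every fit that left out 1 library, with edgeR adjusted p-values up to 0.0283. The calls of fosab (0.0917), klf2a (0.0581) and gadd45bb (0.0701) ended without library 1 at 0.1 µg/L (edgeR adjusted p in parentheses). That of fosab ended without library 2 at 0.1 µg/L (0.0963) or library 2 at 10 µg/L (0.0576). klf2a (0.0611) and gadd45bb (0.0692) were not called with the compared groups alone (edgeR adjusted p in parentheses). Calls among immediate early genes numbered 2, 6 and 23 without libraries 1, 2 and 3 at 0.1 µg/L in turn, and 9 to 16 without 1 library at 10 µg/L, fewest without library 2. Immediate early calls were 2 higher and 5 lower with library size alone, and 0 higher and 7 lower with the compared groups alone.

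Genes that glucocorticoids induce gave lower calls, which depended on the scaling. Of 20 glucocorticoid-responsive genes 8 fell (40%, against 7.34% of all genes) and 0 rose. Their summed level was 503 to 744 CPM at 10 µg/L, against 1350.1, 1083 and 1287 CPM at 0.1 µg/L, with no overlap. socs3a, which encodes an inhibitor of cytokine receptor signalling, had 20.6, 17.8, 24.9, 19.1 and 24.5 CPM, mean 21.4 ± 3.2, at 10 µg/L, against 46.2, 53.1 and 49.4 CPM, mean 49.6 ± 3.44, at 0.1 µg/L (log2 fold change -1.21 with SE 0.28, edgeR adjusted p = 0.018). ddit4, an inhibitor of the growth kinase mTORC1, had 71.4, 64.8, 68.3, 101 and 83.4 CPM, mean 77.8 ± 14.8, at 10 µg/L, against 179.9, 146 and 126 CPM, mean 151 ± 27.2, at 0.1 µg/L (log2 fold change -0.95 with SE 0.24, edgeR adjusted p = 0.0244). g6pca.2, for the glucose-releasing enzyme of gluconeogenesis, had 34.2, 19.1, 10.03, 46.4 and 29.4 CPM, mean 27.8 ± 14, at 10 µg/L, against 122, 68.8 and 75.8 CPM, mean 88.8 ± 28.8, at 0.1 µg/L (log2 fold change -1.67 with SE 0.41, edgeR adjusted p = 0.0207). In these genes all 3 libraries at 0.1 µg/L lay above the 10 µg/L range. The calls of socs3a (0.0804), ddit4 (0.159) and g6pca.2 (0.156) ended without library 1 at 0.1 µg/L (edgeR adjusted p in parentheses). Those of socs3a (0.0726), ddit4 (0.0759) and g6pca.2 (0.0547) ended without library 2 at 0.1 µg/L. Those of socs3a (0.0515), ddit4 (0.0637) and g6pca.2 (0.0555) ended without library 2 at 10 µg/L. ddit4 (0.0565) and g6pca.2 (0.0813) were not called with the compared groups alone (edgeR adjusted p in parentheses). Calls among glucocorticoid-responsive genes numbered 0, 0 and 9 without libraries 1, 2 and 3 at 0.1 µg/L in turn, and 0 to 6 without 1 library at 10 µg/L, fewest without library 2. Glucocorticoid calls were 2 higher and 0 lower with library size alone, and 0 higher and 3 lower with the compared groups alone.

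Of 39 inflammation and interferon genes 9 fell (23.1%, against 7.34% of all genes) and 0 rose. Their summed level was 349.8 to 442 CPM at 10 µg/L, against 751, 724 and 554 CPM at 0.1 µg/L. ptgs2b, which encodes an inducible cyclooxygenase, had 2.14, 1.47, 2.66, 2.88 and 1.49 CPM, mean 2.13 ± 0.65, at 10 µg/L, against 7.09, 14.5 and 5.86 CPM, mean 9.16 ± 4.69, at 0.1 µg/L (log2 fold change -2.11 with SE 0.35, edgeR adjusted p = 0.00587). nfkbiaa, for an inhibitor of the inflammatory factor NF-kappa-B, had 15.2, 14.2, 16.3, 20.1 and 19 CPM, mean 16.9 ± 2.51, at 10 µg/L, against 48.9, 50.3 and 26.8 CPM, mean 42 ± 13.2, at 0.1 µg/L (log2 fold change -1.31 with SE 0.23, edgeR adjusted p = 0.00594). Its paralog nfkbiab had 76.8, 70.5, 85.8, 99.8 and 90.01 CPM, mean 84.6 ± 11.4, at 10 µg/L, against 276, 241 and 156 CPM, mean 224 ± 61.5, at 0.1 µg/L (log2 fold change -1.41 with SE 0.27, edgeR adjusted p = 0.00915). irf9, a transducer of interferon signals, was at 2.48 to 4.62 CPM at 10 µg/L, against 18, 8.4 and 6.8 CPM at 0.1 µg/L (log2 fold change -1.47, edgeR adjusted p = 0.0129). The median of the list was -0.33, and 0.07 with library size alone. ptgs2b and nfkbiaa stayed called in every fit that left out 1 library, with edgeR adjusted p-values up to 0.0487. The calls of nfkbiab (0.0715) and irf9 (0.147) ended without library 1 at 0.1 µg/L (edgeR adjusted p in parentheses). irf9 (0.0927) was not called with the compared groups alone (edgeR adjusted p in parentheses). Calls among inflammation genes numbered 2, 4 and 14 without libraries 1, 2 and 3 at 0.1 µg/L in turn, and 6 to 11 without 1 library at 10 µg/L, fewest without library 2. Inflammation calls were 0 higher and 3 lower with library size alone, and 0 higher and 5 lower with the compared groups alone.

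Chaperone genes were called lower as well: 18 of 46 (39.1%, against 7.34% of all genes), with 0 higher. Their summed level was 5534 to 10037 CPM at 10 µg/L, against 19222, 14592 and 7813 CPM at 0.1 µg/L. Controls had 6264 to 9181 CPM in this sum, within the 10 µg/L range. hsp90aa1.2 had 43.3, 52.8, 47.3, 65.2 and 50.1 CPM, mean 51.7 ± 8.28, at 10 µg/L, against 168, 169 and 132 CPM, mean 156 ± 21, at 0.1 µg/L. This gene for a cytosolic Hsp90 was 3.02-fold lower (log2 fold change -1.6 with SE 0.19, edgeR adjusted p = 0.00192), and library 3 at 0.1 µg/L was above every library at 10 µg/L. hsf2, a heat shock transcription factor gene, had 33.3, 32.4, 40.9, 38.4 and 39.3 CPM, mean 36.9 ± 3.79, at 10 µg/L, against 127, 92.8 and 83.3 CPM, mean 101 ± 22.9, at 0.1 µg/L (log2 fold change -1.45 with SE 0.24, edgeR adjusted p = 0.00587). hspb6, a small heat shock protein gene of muscle, had 1.71, 1.7, 1.08, 3.51 and 2.05 CPM, mean 2.01 ± 0.907, at 10 µg/L, against 15.2, 12.8 and 9.3 CPM, mean 12.4 ± 2.95, at 0.1 µg/L (log2 fold change -2.62 with SE 0.42, edgeR adjusted p = 0.00535). hspa4a, of the Hsp110 exchange factors, had 12.1, 19.6, 16, 20.4 and 17.6 CPM, mean 17.1 ± 3.3, at 10 µg/L, against 41.5, 44.7 and 30.9 CPM, mean 39 ± 7.22, at 0.1 µg/L (log2 fold change -1.19 with SE 0.21, edgeR adjusted p = 0.00594). In these 4 genes the groups did not overlap. The list's median was -0.91, and -0.18 against library 3 alone. hsp90aa1.2, hsf2, hspb6 and hspa4a stayed called in every fit that left out 1 library, with edgeR adjusted p-values up to 0.0459. Calls among chaperone genes numbered 4, 7 and 29 without libraries 1, 2 and 3 at 0.1 µg/L in turn, and 7 to 22 without 1 library at 10 µg/L, fewest without library 2. Chaperone calls were 0 higher and 7 lower with library size alone, and 0 higher and 4 lower with the compared groups alone.

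Of 22 genes of endoplasmic reticulum stress 5 fell (22.7%, against 7.34% of all genes) and 0 rose. hspa5, the Hsp70 of that compartment, was at 46.8 to 75.8 CPM at 10 µg/L, against 173, 137 and 83.4 CPM at 0.1 µg/L (log2 fold change -1.13, edgeR adjusted p = 0.00887). hsp90b1, its Hsp90, was at 32.5 to 59.6 CPM at 10 µg/L, against 124, 97.3 and 61.3 CPM at 0.1 µg/L (log2 fold change -1.16, edgeR adjusted p = 0.00909). trib3, a pseudokinase gene of the same stress response, was at 38.7 to 54.2 CPM at 10 µg/L, against 97.8, 76.8 and 64.5 CPM at 0.1 µg/L (log2 fold change -0.89, edgeR adjusted p = 0.00976). The calls of hspa5 (0.08), hsp90b1 (0.08) and trib3 (0.0858) ended without library 1 at 0.1 µg/L (edgeR adjusted p in parentheses). hspa5 (0.0713), hsp90b1 (0.0692) and trib3 (0.0641) were not called with the compared groups alone (edgeR adjusted p in parentheses). The list's median was -0.29, and 0.17 with library size alone. Endoplasmic reticulum stress calls numbered 0, 3 and 11 without libraries 1, 2 and 3 at 0.1 µg/L in turn, and 4 to 5 without 1 library at 10 µg/L, fewest without library 1, 2, 3 or 5. Of the 11, 3 were higher and 8 lower. Endoplasmic reticulum calls were 1 higher and 2 lower with library size alone, and 0 higher and 0 lower with the compared groups alone.

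Many intestinal genes were lower at 10 µg/L, also beside library 3 at 0.1 µg/L. Of 47 tested members 21 fell (44.7%, against 7.34% of all genes) and 0 rose. In 25 the groups did not overlap in that direction, against 6.81% of all genes. Library 3 at 0.1 µg/L was above the 10 µg/L range in 30, against 17.9% of all genes. It was within that range in the organ markers fabp2 (called lower, edgeR adjusted p = 0.0311) and fabp6 (not called, edgeR adjusted p = 0.0577). The median was -1.73, and -1.51 against library 3 alone, where that of all genes was 0.01. Many members are digestive enzymes of the brush border, the absorptive surface of the gut. anpepb had 21.2, 7.51, 6.89, 21.9 and 16.3 CPM, mean 14.8 ± 7.23, at 10 µg/L, against 88.3, 56.3 and 97.3 CPM, mean 80.6 ± 21.5, at 0.1 µg/L. anpepb, an aminopeptidase N gene, had its highest level in library 3 at 0.1 µg/L (log2 fold change -2.45 with SE 0.39, edgeR adjusted p = 0.00531). anpepa, its paralog, had 2.42, 1.55, 2.16, 2.07 and 2.4 CPM, mean 2.12 ± 0.354, at 10 µg/L, against 5.84, 7.57 and 8.44 CPM, mean 7.29 ± 1.32, at 0.1 µg/L (log2 fold change -1.78 with SE 0.28, edgeR adjusted p = 0.00531).

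The meprin metalloprotease gene mep1a.1 had 3.92, 2.94, 1.97, 4.86 and 1.63 CPM, mean 3.06 ± 1.34, at 10 µg/L, against 40.3, 20.8 and 16.8 CPM, mean 25.9 ± 12.6, at 0.1 µg/L (8.44-fold lower, log2 fold change -3.08 with SE 0.43, edgeR adjusted p = 0.00377). Next to it in name, mep1a.2 had 2.56, 1.08, 0.492, 1.26 and 1.41 CPM, mean 1.36 ± 0.757, at 10 µg/L, against 18.6, 7.88 and 9.56 CPM, mean 12 ± 5.79, at 0.1 µg/L (log2 fold change -3.11 with SE 0.53, edgeR adjusted p = 0.00587), and the 2 may share reads. slc15a1a, the uptake transporter of small peptides, had 2.42, 1.01, 0.59, 4.14 and 2.83 CPM, mean 2.2 ± 1.43, at 10 µg/L, against 24.7, 11 and 11.3 CPM, mean 15.7 ± 7.82, at 0.1 µg/L (log2 fold change -2.82 with SE 0.54, edgeR adjusted p = 0.00909). Library 3 at 10 µg/L was the lowest of the 8 in anpepb, mep1a.2 and slc15a1a. Controls lay between the doses for mep1a.1 (5.46 to 13.3 CPM) and anpepb (27.6 to 47.5 CPM). For the summed list, controls (578.6 to 1355.9 CPM) overlapped the 10 µg/L libraries (436.5 to 1240.1 CPM). All 3 libraries at 0.1 µg/L lay above both, at 3365.5, 2129.3 and 1454 CPM. anpepb, anpepa, mep1a.1 and mep1a.2 stayed called in every fit that left out 1 library, with edgeR adjusted p-values up to 0.0487. The call of slc15a1a (0.077) ended without library 1 at 0.1 µg/L (edgeR adjusted p in parentheses). Calls among intestinal genes numbered 7, 12 and 31 without libraries 1, 2 and 3 at 0.1 µg/L in turn, and 13 to 26 without 1 library at 10 µg/L, fewest without library 2. Intestinal calls were 0 higher and 13 lower with library size alone, and 0 higher and 9 lower with the compared groups alone. In GRCz11, mep1a.1 (ENSDARG00000029747) lies on chromosome 20 from 35473288 to 35481584 and anpepb (ENSDARG00000103878) lies on chromosome 25 from 10811551 to 10827771.

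Genes of slow, fast and heart muscle were lower at 10 than at 0.1 µg/L. Of 16 slow muscle genes 13 fell (81.2%), of 55 fast muscle genes 28 (50.9%) and of 20 heart genes 5 (25%), and 0 rose in any of them. Over all tested genes 7.34% fell and 3.26% rose. smyhc1, the slow myosin heavy chain gene, had 38.2, 12.2, 11.8, 35.9 and 33.2 CPM, mean 26.3 ± 13.2, at 10 µg/L, against 312, 278 and 93.9 CPM, mean 228 ± 117, at 0.1 µg/L (log2 fold change -3.11 with SE 0.58, edgeR adjusted p = 0.00771). myhz1.1, a fast myosin heavy chain gene among the most abundant transcripts, had 4414, 3574, 2576, 4571 and 4579 CPM, mean 3943 ± 869.6, at 10 µg/L, against 28964, 19421 and 5516 CPM, mean 17967 ± 11792, at 0.1 µg/L (log2 fold change -2.19 with SE 0.38, edgeR adjusted p = 0.00594). In both, libraries 1 and 2 at 0.1 µg/L were several times above library 3. myhz1.1 has near-identical copies, so its reads may be split among them. A second gene entry of the same name was far less abundant. Without TMM it had 4.43 to 9.91 CPM at 10 µg/L, against 20.6, 23.6 and 14.6 CPM at 0.1 µg/L.

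tnnt2d, a troponin T gene, had 38.4, 14.2, 16, 25.6 and 28.7 CPM, mean 24.6 ± 9.85, at 10 µg/L, against 198, 171 and 65.2 CPM, mean 145 ± 70.06, at 0.1 µg/L (log2 fold change -2.55 with SE 0.41, edgeR adjusted p = 0.00531). tnni1b, a slow troponin I gene, had 3.35, 2.01, 2.46, 2.43 and 1.77 CPM, mean 2.4 ± 0.602, at 10 µg/L, against 10.4, 8.82 and 5.77 CPM, mean 8.34 ± 2.37, at 0.1 µg/L (log2 fold change -1.79 with SE 0.30, edgeR adjusted p = 0.00587). tcap, which encodes the telethonin cap of titin, had 4.2, 3.41, 8.36, 3.78 and 3.96 CPM, mean 4.74 ± 2.04, at 10 µg/L, against 36.7, 17.1 and 15 CPM, mean 22.9 ± 11.9, at 0.1 µg/L (log2 fold change -2.27 with SE 0.37, edgeR adjusted p = 0.00535). myh7, a heart and slow muscle myosin gene, had 46.5, 33, 38, 27.6 and 43.6 CPM, mean 37.7 ± 7.69, at 10 µg/L, against 207, 163 and 69.5 CPM, mean 146 ± 70.08, at 0.1 µg/L (log2 fold change -1.95 with SE 0.29, edgeR adjusted p = 0.00462). cmlc1, a cardiac myosin light chain gene, was at 2.63 to 7.48 CPM at 10 µg/L, against 26.2, 21.4 and 8.7 CPM at 0.1 µg/L (log2 fold change -2.28, edgeR adjusted p = 0.00771). The medians were -2.02, -1.82 and -1.05 for slow, fast and heart muscle, and -0.99, -0.98 and -0.96 against library 3 alone. The summed level of fast muscle genes was 15057 to 63319 CPM at 10 µg/L, against 244484, 153629 and 70324 CPM at 0.1 µg/L, and the lowest was library 3 at 10 µg/L. Controls had 20222 to 82825 CPM, which overlapped the 10 µg/L range. Slow muscle genes summed to 445.7 to 966.5 CPM at 10 µg/L and 486.7 to 1366.5 CPM in controls. At 0.1 µg/L they summed to 3676.8, 2468.4 and 1316.5 CPM. tnnt2d, tnni1b, tcap and myh7 stayed called in every fit that left out 1 library, with edgeR adjusted p-values up to 0.0487. The calls of smyhc1 (0.0643), myhz1.1 (0.0539) and cmlc1 (0.0656) ended without library 1 at 0.1 µg/L (edgeR adjusted p in parentheses). myhz1.1 (0.0682) and cmlc1 (0.0535) were not called with the compared groups alone (edgeR adjusted p in parentheses). Calls among fast muscle genes numbered 0, 3 and 37 without libraries 1, 2 and 3 at 0.1 µg/L in turn, and 6 to 31 without 1 library at 10 µg/L, fewest without library 2. Fast muscle calls were 0 higher and 5 lower with library size alone, and 0 higher and 3 lower with the compared groups alone. Calls among slow muscle genes numbered 2, 5 and 14 without libraries 1, 2 and 3 at 0.1 µg/L in turn, and 7 to 13 without 1 library at 10 µg/L, fewest without library 2. Slow muscle calls were 0 higher and 6 lower with library size alone, and 0 higher and 4 lower with the compared groups alone. For heart they numbered 3, 4 and 8 without libraries 1, 2 and 3 at 0.1 µg/L in turn, and 5 to 6 without 1 library at 10 µg/L, fewest without library 1, 2, 3 or 5. Heart calls were 0 higher and 5 lower with library size alone, and 0 higher and 3 lower with the compared groups alone.

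**Figure D3:**
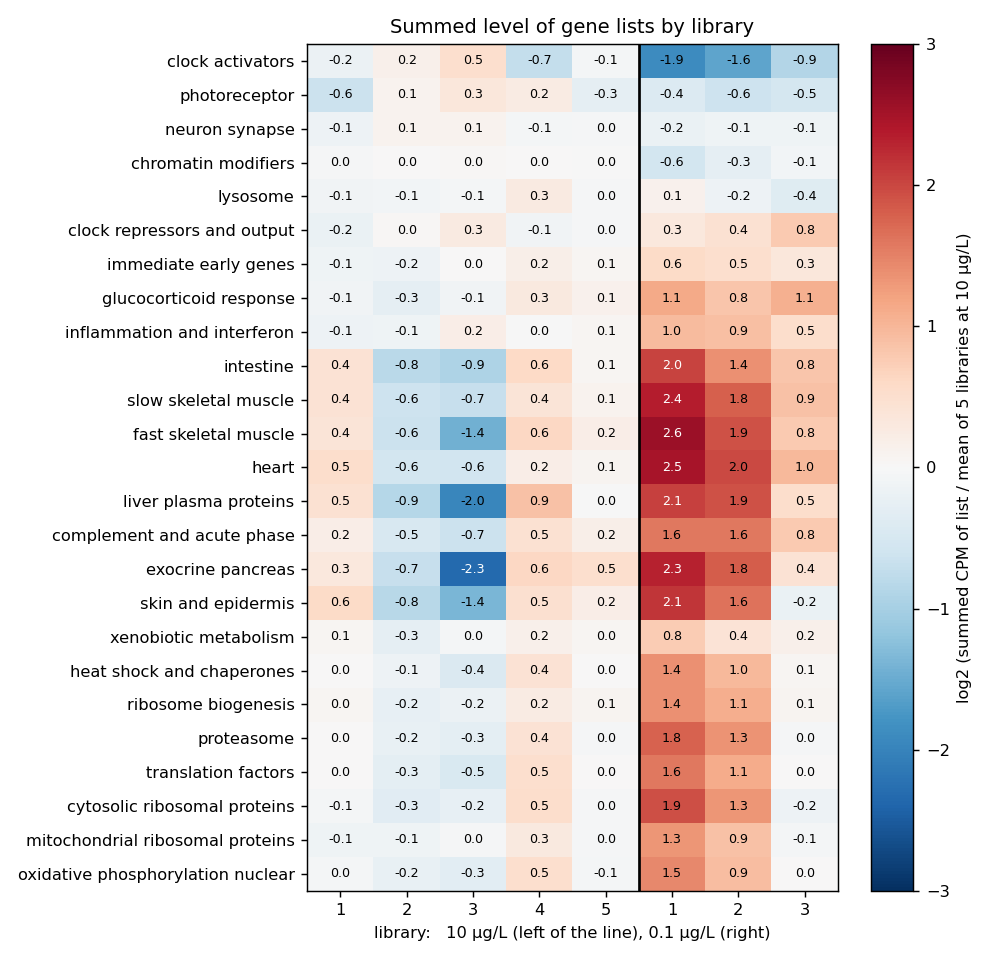
Summed CPM of each gene list (rows) in each library (columns, 10 µg/L left of the line and 0.1 µg/L right of it), as log2 of its ratio to the mean of the 5 libraries at 10 µg/L. The intestine and muscle lists are high in all 3 libraries at 0.1 µg/L, and the cytosolic ribosomal, proteasome and mitochondrial lists in libraries 1 and 2 only.

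Some liver, complement, lipid transport, exocrine pancreas and skin genes were called lower. Of 44 liver plasma protein genes 15 fell (34.1%), of 27 complement and acute phase genes 10 (37%), of 44 lipid transport genes 14 (31.8%), of 27 exocrine pancreas genes 10 (37%) and of 47 skin genes 15 (31.9%). None of these 5 lists had a member called higher. Over all tested genes 7.34% were called lower and 3.26% higher. Library 3 at 0.1 µg/L was above the 10 µg/L range in 17, 14, 15, 7 and 15 of their members in the same order, and within it in 26, 11, 28, 18 and 29. For all tested genes the shares were 17.9% above and 65.5% within. The organ markers fabp10a (0.0657) and tfa (0.0577) of liver were not called (edgeR adjusted p in parentheses). Nor were krt4 (0.292) and krtt1c19e (0.138) of skin and cpa5 (0.0605) of exocrine pancreas, while prss1 (0.0327) of exocrine pancreas was called lower. f5, which encodes coagulation factor V, had 2.85, 3.33, 2.56, 4.05 and 3.25 CPM, mean 3.21 ± 0.565, at 10 µg/L, against 12.9, 19.3 and 11 CPM, mean 14.4 ± 4.33, at 0.1 µg/L (log2 fold change -2.16 with SE 0.35, edgeR adjusted p = 0.00547). f2, the prothrombin gene, was at 4.13 to 14.8 CPM at 10 µg/L, against 47.7, 37.1 and 18 CPM at 0.1 µg/L (log2 fold change -1.96, edgeR adjusted p = 0.0116). c3a.1, for the central complement protein, was at 5.9 to 26.2 CPM at 10 µg/L, against 60.5, 76 and 37.5 CPM at 0.1 µg/L (log2 fold change -1.90, edgeR adjusted p = 0.0117). c9, of the complement pore, was at 11.3 to 40.1 CPM at 10 µg/L, against 98.1, 100.3 and 49.3 CPM at 0.1 µg/L (log2 fold change -1.74, edgeR adjusted p = 0.0164). f5 stayed called in every fit that left out 1 library, with edgeR adjusted p-values up to 0.0322. The calls of f2 (0.0981), c3a.1 (0.0743) and c9 (0.108) ended without library 1 at 0.1 µg/L (edgeR adjusted p in parentheses). Those of f2 (0.0522), c3a.1 (0.0643) and c9 (0.0739) ended without library 2 at 0.1 µg/L. f2 (0.0664), c3a.1 (0.0749) and c9 (0.0664) were not called with the compared groups alone (edgeR adjusted p in parentheses).

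The pancreatic protease genes ctrl and cela1.3 showed the weight of single libraries. ctrl, a chymotrypsin-like gene, had 144, 85, 34.3, 148 and 142 CPM, mean 110.4 ± 49.7, at 10 µg/L, against 826, 502 and 140.5 CPM, mean 489 ± 343, at 0.1 µg/L (log2 fold change -2.15 with SE 0.46, edgeR adjusted p = 0.0129), and library 3 at 0.1 µg/L was within the 10 µg/L range. cela1.3, an elastase gene, had 5.2, 2.56, 1.67, 7.65 and 4.38 CPM, mean 4.29 ± 2.34, at 10 µg/L, against 35.3, 22.9 and 8.27 CPM, mean 22.2 ± 13.5, at 0.1 µg/L (log2 fold change -2.36 with SE 0.46, edgeR adjusted p = 0.00939). In both genes library 3 was the lowest of the 5 at 10 µg/L. krt18b, a keratin gene of simple epithelia, had 38.5, 23.4, 13.2, 39.9 and 38.4 CPM, mean 30.7 ± 11.9, at 10 µg/L, against 121, 98.9 and 44.5 CPM, mean 88.2 ± 39.4, at 0.1 µg/L (log2 fold change -1.52 with SE 0.33, edgeR adjusted p = 0.014), with its lowest value again in library 3 at 10 µg/L. The calls of ctrl (0.135), cela1.3 (0.0893) and krt18b (0.121) ended without library 1 at 0.1 µg/L (edgeR adjusted p in parentheses). That of krt18b ended without library 2 at 0.1 µg/L (0.0619). ctrl (0.09), cela1.3 (0.0692) and krt18b (0.0915) were not called with the compared groups alone (edgeR adjusted p in parentheses).

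Against library 3 alone, the medians were -0.68 for liver, -0.74 for complement, -0.43 for lipid transport, -0.40 for exocrine pancreas and -0.26 for skin. With all 3 libraries they were -1.46, -1.13, -1.16, -1.49 and -1.11 in the same order. Calls among liver genes numbered 1, 1 and 24 without libraries 1, 2 and 3 at 0.1 µg/L in turn, and 4 to 22 without 1 library at 10 µg/L, fewest without library 2. Liver calls were 0 higher and 2 lower with library size alone, and 0 higher and 1 lower with the compared groups alone. In complement the count was 0, 1 and 13 without libraries 1, 2 and 3 at 0.1 µg/L in turn, and 4 to 13 without 1 library at 10 µg/L, fewest without library 2. Complement calls were 0 higher and 2 lower with library size alone, and 0 higher and 0 lower with the compared groups alone. For lipid transport it was 2, 1 and 27 without libraries 1, 2 and 3 at 0.1 µg/L in turn, and 5 to 23 without 1 library at 10 µg/L, fewest without library 2. Lipid transport calls were 0 higher and 3 lower with library size alone, and 0 higher and 1 lower with the compared groups alone. Calls among pancreatic genes numbered 0, 2 and 16 without libraries 1, 2 and 3 at 0.1 µg/L in turn, and 2 to 13 without 1 library at 10 µg/L, fewest without library 2. Pancreatic calls were 0 higher and 2 lower with library size alone, and 0 higher and 0 lower with the compared groups alone. Among skin genes it was 0, 0 and 28 without libraries 1, 2 and 3 at 0.1 µg/L in turn, and 3 to 15 without 1 library at 10 µg/L, fewest without library 2. Skin calls were 0 higher and 0 lower with library size alone, and 0 higher and 2 lower with the compared groups alone.

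Several metabolic genes stayed called whichever library was left out. nmrk2 had 13.2, 14.6, 11.2, 16.8 and 12.4 CPM, mean 13.7 ± 2.16, at 10 µg/L, against 131, 121 and 89.8 CPM, mean 114 ± 21.5, at 0.1 µg/L. nmrk2 encodes a nicotinamide riboside kinase of muscle that makes NAD, and it was 8.32-fold lower with groups far apart (log2 fold change -3.06 with SE 0.41, edgeR adjusted p = 0.00299). cd36, a fatty acid uptake receptor gene, had 19.5, 15.6, 13.9, 27.3 and 21 CPM, mean 19.4 ± 5.24, at 10 µg/L, against 81.8, 48.9 and 63.7 CPM, mean 64.8 ± 16.5, at 0.1 µg/L (log2 fold change -1.73 with SE 0.25, edgeR adjusted p = 0.00379). ucp3, a mitochondrial uncoupling protein gene, had 22.9, 15.6, 15.1, 33.1 and 35.5 CPM, mean 24.4 ± 9.57, at 10 µg/L, against 110, 90.5 and 61.6 CPM, mean 87.4 ± 24.4, at 0.1 µg/L (log2 fold change -1.84 with SE 0.30, edgeR adjusted p = 0.00587). cyp2n13, a cytochrome P450 gene, had 10.6, 9.29, 10.03, 14.2 and 11.3 CPM, mean 11.09 ± 1.9, at 10 µg/L, against 51.3, 29.1 and 24.5 CPM, mean 35 ± 14.4, at 0.1 µg/L (log2 fold change -1.65 with SE 0.26, edgeR adjusted p = 0.00531). itpkcb, which encodes an inositol trisphosphate kinase and was chosen after its values were seen, had 9.12, 8.91, 6, 9.54 and 9.4 CPM, mean 8.59 ± 1.47, at 10 µg/L, against 34.9, 31.9 and 28.5 CPM, mean 31.8 ± 3.21, at 0.1 µg/L (log2 fold change -1.88 with SE 0.25, edgeR adjusted p = 0.00299). nmrk2, cd36, ucp3, cyp2n13 and itpkcb stayed called in every fit that left out 1 library, with edgeR adjusted p-values up to 0.0415.

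PPAR alpha, a fatty acid receptor, is a known target of perfluoroalkyl acids in mammals. Of 53 PPAR target and fatty acid oxidation genes 7 fell (13.2%, against 7.34%) and 0 rose, with a median of -0.19 that turned to 0.21 with library size alone. pparaa, which encodes this receptor, had 28, 18.4, 27.5, 17.8 and 23.3 CPM, mean 23 ± 4.85, at 10 µg/L, against 11.3, 12.3 and 19.8 CPM, mean 14.5 ± 4.64, at 0.1 µg/L and did not pass (log2 fold change 0.66 with SE 0.22, edgeR adjusted p = 0.0641). cpt1aa, the gate of mitochondrial fatty acid oxidation and a PPAR target, had 37.1, 39.7, 56.2, 36.4 and 38.8 CPM, mean 41.6 ± 8.23, at 10 µg/L, against 29.2, 30.8 and 37.1 CPM, mean 32.4 ± 4.18, at 0.1 µg/L and did not pass (log2 fold change 0.36 with SE 0.17, edgeR adjusted p = 0.179). ucp2, an uncoupling protein gene, had 88.4, 80.8, 66.8, 118 and 85.8 CPM, mean 87.9 ± 18.6, at 10 µg/L, against 432, 226 and 160.1 CPM, mean 273 ± 142, at 0.1 µg/L (log2 fold change -1.63 with SE 0.29, edgeR adjusted p = 0.00594). The call of ucp2 (0.059) ended without library 1 at 0.1 µg/L (edgeR adjusted p in parentheses). Calls among PPAR target genes numbered 1, 2 and 21 without libraries 1, 2 and 3 at 0.1 µg/L in turn, and 2 to 11 without 1 library at 10 µg/L, fewest without library 2. Of the 21, 8 were higher and 13 lower, in a fit that called 37.5% of all tested genes. PPAR target calls were 0 higher and 2 lower with library size alone, and 0 higher and 2 lower with the compared groups alone.

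Of 76 xenobiotic metabolism genes 16 fell (21.1%, against 7.34% of all genes) and 1 rose, with a median of -0.66. The gene that rose was abcc1, a drug efflux pump gene, at 46, 46.3, 59.8, 41.8 and 51.1 CPM, mean 49 ± 6.89, at 10 µg/L, against 18.4, 15 and 25.8 CPM, mean 19.7 ± 5.48, at 0.1 µg/L (log2 fold change 1.31 with SE 0.23, edgeR adjusted p = 0.00598). ugt1a1, for a conjugating enzyme of bilirubin and drugs, had 10.33, 6.27, 4.92, 13.8 and 8.77 CPM, mean 8.81 ± 3.48, at 10 µg/L, against 34.6, 24.1 and 18.8 CPM, mean 25.8 ± 8.03, at 0.1 µg/L (log2 fold change -1.55 with SE 0.33, edgeR adjusted p = 0.0123), and its reads may be shared with its close relatives. cyp1a, the enzyme induced through the aryl hydrocarbon receptor, had 6.62, 3.41, 3.44, 5.49 and 4.1 CPM, mean 4.61 ± 1.4, at 10 µg/L, against 10.32, 7.57 and 11 CPM, mean 9.64 ± 1.82, at 0.1 µg/L (log2 fold change -1.06 with SE 0.31, edgeR adjusted p = 0.0394); without TMM its groups overlapped. The calls of abcc1 (0.0512), ugt1a1 (0.104) and cyp1a (0.178) ended without library 1 at 0.1 µg/L (edgeR adjusted p in parentheses). That of cyp1a ended without library 2 at 0.1 µg/L (0.0752), library 2 at 10 µg/L (0.0919), library 3 at 10 µg/L (0.0735) or library 5 at 10 µg/L (0.0791). ugt1a1 (0.0692) and cyp1a (0.116) were not called with the compared groups alone (edgeR adjusted p in parentheses). Calls among xenobiotic genes numbered 1, 4 and 30 without libraries 1, 2 and 3 at 0.1 µg/L in turn, and 8 to 25 without 1 library at 10 µg/L, fewest without library 2. Xenobiotic calls were 1 higher and 4 lower with library size alone, and 1 higher and 1 lower with the compared groups alone.

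Genes of protein synthesis, protein breakdown and respiration were called lower in large numbers, and in them library 3 at 0.1 µg/L resembled the 10 µg/L libraries. Of 85 cytosolic ribosomal protein genes 65 fell (76.5%, against 7.34% of all genes) and 0 rose. Yet only 1 of them was lower with groups that did not overlap, against 6.81% of all genes. In 75 of the 85 library 3 at 0.1 µg/L was within the 10 µg/L range, against 65.5% of all tested genes. The median log2 fold change of the ribosomal genes was -1.20 with all libraries and 0.16 against library 3 alone, the opposite direction. Their summed level was 71957 to 129699 CPM at 10 µg/L, against 344796, 228275 and 81396 CPM at 0.1 µg/L. It was 76431 to 91200 CPM in controls and 92680 to 107081 CPM at 1 µg/L. Only libraries 1 and 2 at 0.1 µg/L thus lay apart in this sum. rpl5a had 1568, 1130.2, 1272, 1637 and 1582 CPM, mean 1438 ± 223, at 10 µg/L, against 6928, 4235 and 1528 CPM, mean 4230.2 ± 2699.8, at 0.1 µg/L. This gene of the large subunit passed (log2 fold change -1.56 with SE 0.31, edgeR adjusted p = 0.00983), with library 3 in the middle of the 10 µg/L values. rps24, of the small subunit, had 996, 833, 969.9, 1242 and 992 CPM, mean 1007 ± 148, at 10 µg/L, against 4373, 3054 and 1004 CPM, mean 2810.3 ± 1698, at 0.1 µg/L (log2 fold change -1.48 with SE 0.30, edgeR adjusted p = 0.0108). Calls among ribosomal genes numbered 0, 2 and 79 without libraries 1, 2 and 3 at 0.1 µg/L in turn, and 16 to 69 without 1 library at 10 µg/L, fewest without library 2. Of the 79, 7 were higher and 72 lower. Ribosomal calls were 0 higher and 19 lower with library size alone, and 0 higher and 0 lower with the compared groups alone.

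Of 53 proteasome genes 28 fell (52.8%, against 7.34% of all genes) and 1 rose. Their summed level was 1832 to 3035 CPM at 10 µg/L and 1698 to 2504 CPM in controls. At 0.1 µg/L it was 7674, 5720 and 2198 CPM. psma4, a subunit of the catalytic core, had 73.5, 57.9, 55.7, 101 and 69.1 CPM, mean 71.5 ± 18.2, at 10 µg/L, against 393, 319 and 84.9 CPM, mean 266 ± 161, at 0.1 µg/L (log2 fold change -1.89 with SE 0.33, edgeR adjusted p = 0.00594). psmb3, another core subunit, was at 31.7 to 50.6 CPM at 10 µg/L, against 171, 149.5 and 47.5 CPM at 0.1 µg/L (log2 fold change -1.68, edgeR adjusted p = 0.00939). The gene that rose was psme4b, for a proteasome activator, at 97.3, 137, 159, 128 and 102 CPM, mean 125 ± 25.5, at 10 µg/L, against 49.9, 59.9 and 82.4 CPM, mean 64 ± 16.7, at 0.1 µg/L (log2 fold change 0.96 with SE 0.19, edgeR adjusted p = 0.0108). Of 74 translation factor genes 24 fell (32.4%, against 7.34% of all genes) and 1 rose. eef1da, of the elongation factor complex, had 441, 266, 291, 519 and 393 CPM, mean 382 ± 105, at 10 µg/L, against 2486, 1613 and 462 CPM, mean 1520.5 ± 1015, at 0.1 µg/L (log2 fold change -1.99 with SE 0.35, edgeR adjusted p = 0.00619). eif2s2, a subunit of the initiation factor that brings the first tRNA, was at 109 to 170.1 CPM at 10 µg/L, against 658, 513 and 137 CPM at 0.1 µg/L (log2 fold change -1.68, edgeR adjusted p = 0.00926). In psma4, psmb3, eef1da and eif2s2 library 3 at 0.1 µg/L was within the 10 µg/L range. The calls of rpl5a (0.104), rps24 (0.108), psma4 (0.0627), psmb3 (0.0876), psme4b (0.0915), eef1da (0.0669) and eif2s2 (0.0921) ended without library 1 at 0.1 µg/L (edgeR adjusted p in parentheses). Those of rps24 (0.0522), psmb3 (0.0513) and psme4b (0.0598) ended without library 2 at 0.1 µg/L. rpl5a (0.096), rps24 (0.0976), psma4 (0.0635), psmb3 (0.0615), psme4b (0.0793), eef1da (0.0692) and eif2s2 (0.0765) were not called with the compared groups alone (edgeR adjusted p in parentheses). Calls among proteasome genes numbered 0, 2 and 44 without libraries 1, 2 and 3 at 0.1 µg/L in turn, and 15 to 38 without 1 library at 10 µg/L, fewest without library 2. Proteasome calls were 2 higher and 9 lower with library size alone, and 1 higher and 0 lower with the compared groups alone. For translation factors they numbered 0, 4 and 45 without libraries 1, 2 and 3 at 0.1 µg/L in turn, and 6 to 32 without 1 library at 10 µg/L, fewest without library 2. Translation factor calls were 2 higher and 5 lower with library size alone, and 0 higher and 0 lower with the compared groups alone.

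Of 83 nuclear genes of oxidative phosphorylation 44 fell (53%) and of 69 mitochondrial ribosomal protein genes 29 (42%), with 0 higher in both. ndufa6, of respiratory complex I, had 86.2, 73.8, 66.3, 129 and 79 CPM, mean 86.9 ± 24.7, at 10 µg/L, against 463, 291 and 85 CPM, mean 279.6 ± 189, at 0.1 µg/L (log2 fold change -1.69 with SE 0.35, edgeR adjusted p = 0.0108). mrps15, of the mitochondrial small subunit, had 17.7, 18.4, 24.8, 20.2 and 23.1 CPM, mean 20.9 ± 3.04, at 10 µg/L, against 104, 64.5 and 23.7 CPM, mean 64 ± 40.1, at 0.1 µg/L (log2 fold change -1.62 with SE 0.29, edgeR adjusted p = 0.00717). Their medians were -0.96 and -0.79, and -0.02 and 0.03 against library 3 alone. Oxidative phosphorylation genes summed to 7369 to 12978 CPM at 10 µg/L and 5655 to 11104 CPM in controls. At 0.1 µg/L they summed to 25122, 17386 and 9248 CPM. Of the 13 protein-coding genes of the mitochondrial genome 1 fell (7.69%), close to the 7.34% of all tested genes, and 0 rose. Without library 3 at 0.1 µg/L, where 37.5% of all tested genes were called, 5 of the 13 fell and 1 rose. The calls of ndufa6 (0.128) and mrps15 (0.0785) ended without library 1 at 0.1 µg/L (edgeR adjusted p in parentheses). ndufa6 (0.0899) and mrps15 (0.0745) were not called with the compared groups alone (edgeR adjusted p in parentheses). Calls among oxidative phosphorylation genes numbered 0, 3 and 64 without libraries 1, 2 and 3 at 0.1 µg/L in turn, and 8 to 58 without 1 library at 10 µg/L, fewest without library 2. Respiratory calls were 0 higher and 5 lower with library size alone, and 0 higher and 0 lower with the compared groups alone. For the mitochondrial ribosome they numbered 0, 2 and 54 without libraries 1, 2 and 3 at 0.1 µg/L in turn, and 8 to 38 without 1 library at 10 µg/L, fewest without library 2. Mitochondrial ribosome calls were 0 higher and 3 lower with library size alone, and 0 higher and 0 lower with the compared groups alone.

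Ribosome biogenesis genes, a list added after values were seen, stood between these patterns. Of 123 such genes 69 fell (56.1%, against 7.34% of all genes) and 1 rose. In 34 of the 123 library 3 at 0.1 µg/L was above the 10 µg/L range, against 17.9% of all tested genes. ngdn had 17.7, 18.7, 16.6, 17.6 and 21.1 CPM, mean 18.3 ± 1.74, at 10 µg/L, against 99.5, 78.8 and 29.5 CPM, mean 69.2 ± 36, at 0.1 µg/L. ngdn encodes a nucleolar protein of small subunit assembly (log2 fold change -1.91 with SE 0.26, edgeR adjusted p = 0.00299). sdad1, a nucleolar protein gene of ribosome assembly, had 60.5, 46.2, 42.7, 46.3 and 61.9 CPM, mean 51.5 ± 8.97, at 10 µg/L, against 228, 177 and 71.4 CPM, mean 159 ± 79.7, at 0.1 µg/L (log2 fold change -1.62 with SE 0.26, edgeR adjusted p = 0.00531). pinx1, a nucleolar protein gene named for an inhibitor of telomerase, had 45.4, 36.2, 47.8, 33.6 and 54 CPM, mean 43.4 ± 8.42, at 10 µg/L, against 297, 244 and 57.2 CPM, mean 199 ± 126, at 0.1 µg/L (log2 fold change -2.2 with SE 0.35, edgeR adjusted p = 0.00531). mphosph10, a component of the U3 small nucleolar complex, had 15.4, 14.9, 15.2, 10.4 and 15.8 CPM, mean 14.4 ± 2.22, at 10 µg/L, against 62.5, 60.7 and 21.4 CPM, mean 48.2 ± 23.2, at 0.1 µg/L (log2 fold change -1.74 with SE 0.27, edgeR adjusted p = 0.00531). The groups did not overlap in these 4, but library 3 at 0.1 µg/L lay much nearer to the 10 µg/L range than libraries 1 and 2. The median was -0.93, and -0.17 against library 3 alone. ngdn, sdad1, pinx1 and mphosph10 stayed called in every fit that left out 1 library, with edgeR adjusted p-values up to 0.0419. sdad1 (0.0513) was not called with the compared groups alone (edgeR adjusted p in parentheses). Calls among biogenesis genes numbered 5, 21 and 96 without libraries 1, 2 and 3 at 0.1 µg/L in turn, and 39 to 76 without 1 library at 10 µg/L, fewest without library 2. Biogenesis calls were 0 higher and 22 lower with library size alone, and 0 higher and 3 lower with the compared groups alone.

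**Figure D4:**
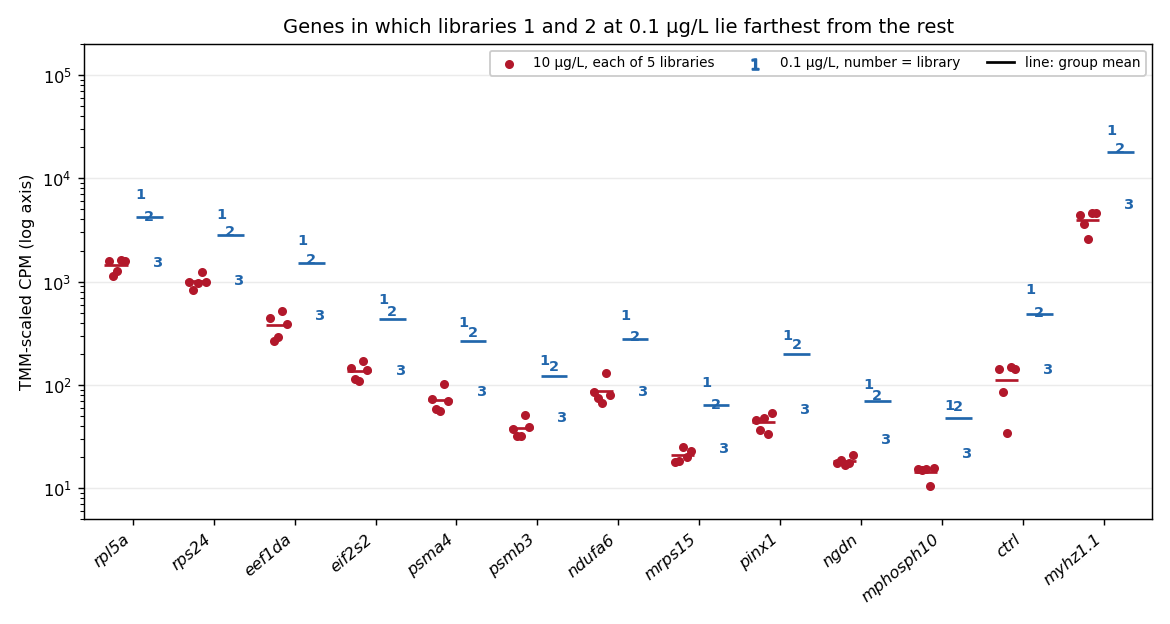
TMM-scaled CPM on a log axis of 13 genes of translation, the proteasome, mitochondria, ribosome biogenesis, pancreas and fast muscle, drawn as in the plot of genes that separate in all 3 libraries. Libraries 1 and 2 at 0.1 µg/L lie above the 5 libraries at 10 µg/L in each gene, and library 3 is within their range or between it and libraries 1 and 2.

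Genes of neurons, chromatin and lysosomes gave call counts that changed with 1 library, as did the count over all genes. Of 83 neuron and synapse genes 6 rose (7.23%, against 3.26%) and 5 fell (6.02%, against 7.34%). nefma, a neurofilament gene, was among the lower ones at 51.8, 58.1, 37.4, 41.7 and 57.8 CPM, mean 49.3 ± 9.43, at 10 µg/L, against 122, 132 and 64.4 CPM, mean 106 ± 36.4, at 0.1 µg/L (log2 fold change -1.1 with SE 0.21, edgeR adjusted p = 0.00909). nefla, another neurofilament gene, had 14, 19.4, 17.7, 16.1 and 14.6 CPM, mean 16.4 ± 2.24, at 10 µg/L, against 54.8, 44.5 and 15.3 CPM, mean 38.2 ± 20.5, at 0.1 µg/L (log2 fold change -1.22 with SE 0.28, edgeR adjusted p = 0.0163), with library 3 at 0.1 µg/L inside the 10 µg/L range. Of 108 neurotransmitter receptor and channel genes 3 rose (2.78%) and 1 fell. grm1a, a metabotropic glutamate receptor gene, had 78.7, 75.4, 80.3, 78.4 and 78.6 CPM, mean 78.3 ± 1.75, at 10 µg/L, against 38.2, 53.1 and 64.3 CPM, mean 51.9 ± 13.1, at 0.1 µg/L (log2 fold change 0.59 with SE 0.15, edgeR adjusted p = 0.0229). With TMM the 5 libraries at 10 µg/L were nearly equal there (72.8 to 89 CPM without TMM), and library 1 at 0.1 µg/L was the lowest of the 8. Of 96 chromatin modifier genes 2 rose (2.08%, against 3.26%) and 1 fell (1.04%), and of 46 lysosome genes 2 rose (4.35%) and 0 fell. insra, which encodes an insulin receptor, had 145, 139, 154, 141 and 141 CPM, mean 144 ± 5.96, at 10 µg/L, against 87.8, 91.5 and 111 CPM, mean 96.6 ± 12.2, at 0.1 µg/L (log2 fold change 0.58 with SE 0.13, edgeR adjusted p = 0.0141). The calls of nefma (0.0692), nefla (0.154), grm1a (0.164) and insra (0.105) ended without library 1 at 0.1 µg/L (edgeR adjusted p in parentheses). Those of nefma (0.056), nefla (0.0765), grm1a (0.0813) and insra (0.0759) ended without library 2 at 0.1 µg/L. That of grm1a also ended without library 2 at 10 µg/L (0.0515). nefma (0.0764), nefla (0.105), grm1a (0.117) and insra (0.0966) were not called with the compared groups alone (edgeR adjusted p in parentheses). Calls among neuron and synapse genes numbered 0, 0 and 32 without libraries 1, 2 and 3 at 0.1 µg/L in turn, and 4 to 10 without 1 library at 10 µg/L, fewest without library 2. Neuron calls were 8 higher and 0 lower with library size alone, and 0 higher and 0 lower with the compared groups alone. Among receptors and channels they numbered 0, 0 and 47 without libraries 1, 2 and 3 at 0.1 µg/L in turn, and 0 to 6 without 1 library at 10 µg/L, fewest without library 2. Receptor calls were 3 higher and 0 lower with library size alone, and 0 higher and 0 lower with the compared groups alone. For chromatin modifiers the count was 0, 0 and 48 without libraries 1, 2 and 3 at 0.1 µg/L in turn, and 0 to 3 without 1 library at 10 µg/L, fewest without library 1, 2, 3 or 5. Chromatin calls were 6 higher and 0 lower with library size alone, and 0 higher and 0 lower with the compared groups alone. Calls among lysosome genes numbered 0, 0 and 12 without libraries 1, 2 and 3 at 0.1 µg/L in turn, and 1 to 4 without 1 library at 10 µg/L, fewest without library 2, 3 or 5. Lysosome calls were 9 higher and 0 lower with library size alone, and 0 higher and 0 lower with the compared groups alone. Nearly all calls without library 3 at 0.1 µg/L were higher in receptors and channels (45 of 47) and chromatin modifiers (44 of 48), and 25 of 32 in neurons. Over all genes 4111 of the 7162 calls in that fit were higher. Without libraries 1, 2 and 3 at 0.1 µg/L in turn, 0.456%, 1.4% and 37.5% of all tested genes were called.

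White blood cell genes gave few calls, all lower: of 28 neutrophil and macrophage genes 4 fell (14.3%, against 7.34% of all genes) and 0 rose. grn2, a granulin gene, had 0.783, 0.232, 0, 0.27 and 0.495 CPM, mean 0.356 ± 0.296, at 10 µg/L, against 9.07, 9.54 and 2.84 CPM, mean 7.15 ± 3.74, at 0.1 µg/L, with no read in library 3 at 10 µg/L (log2 fold change -4.23 with SE 0.72, edgeR adjusted p = 0.00587). At these levels its fold is imprecise. lcp1, which encodes the actin bundling protein of white blood cells, was at 2.79 to 5.4 CPM at 10 µg/L, against 18.1, 15.7 and 6.63 CPM at 0.1 µg/L (log2 fold change -1.52, edgeR adjusted p = 0.0125). The list's median was -0.90, and -0.34 against library 3 alone. grn2 stayed called in every fit that left out 1 library, with edgeR adjusted p-values up to 0.0371. The call of lcp1 (0.108) ended without library 1 at 0.1 µg/L (edgeR adjusted p in parentheses). That of lcp1 ended without library 2 at 0.1 µg/L (0.0628). lcp1 (0.0851) was not called with the compared groups alone (edgeR adjusted p in parentheses). Calls among white blood cell genes numbered 1, 1 and 11 without libraries 1, 2 and 3 at 0.1 µg/L in turn, and 2 to 6 without 1 library at 10 µg/L, fewest without library 1, 2 or 5. White cell calls were 0 higher and 2 lower with library size alone, and 0 higher and 1 lower with the compared groups alone.

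Among the 11 higher calls that stayed called whichever library was left out, dcun1d4 has a narrow spread. dcun1d4, which encodes a factor of cullin neddylation, had 67.1, 76.5, 76.8, 70.9 and 77.2 CPM, mean 73.7 ± 4.51, at 10 µg/L, against 29.96, 41 and 40.2 CPM, mean 37.1 ± 6.16, at 0.1 µg/L (log2 fold change 0.99 with SE 0.15, edgeR adjusted p = 0.00528; adjusted p up to 0.0371 with 1 library left out). cpdp, a photolyase gene that repairs ultraviolet damage to DNA, had 50.6, 51.7, 54.6, 57.3 and 49.9 CPM, mean 52.8 ± 3.07, at 10 µg/L, against 34.2, 29.7 and 26.5 CPM, mean 30.1 ± 3.85, at 0.1 µg/L (log2 fold change 0.81 with SE 0.16, edgeR adjusted p = 0.00909). The call of cpdp (0.0551) ended without library 2 at 0.1 µg/L (edgeR adjusted p in parentheses). cpdp (0.063) was not called with the compared groups alone (edgeR adjusted p in parentheses). Of 26 p53 and DNA repair genes 2 rose (7.69%, against 3.26% of all genes) and 4 fell (15.4%, against 7.34%). The calls numbered 2, 1 and 14 without libraries 1, 2 and 3 at 0.1 µg/L in turn. In those fits 0.456%, 1.4% and 37.5% of all genes were called. Without 1 library at 10 µg/L the calls numbered 4 to 7, fewest without library 2. Repair calls were 2 higher and 2 lower with library size alone, and 0 higher and 1 lower with the compared groups alone.

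Some other lists held few calls with all libraries, where 3.26% of all tested genes were higher and 7.34% lower. Of 68 cell cycle and replication genes 1 rose and 1 fell, of 21 thyroid and oestrogen genes 0 passed, of 29 growth factor genes 1 rose, of 59 lens genes 1 fell, of 69 splicing and RNA binding genes 1 fell and of 29 cartilage and bone genes 1 fell (edgeR). Among the thyroid and oestrogen genes 4 had an unadjusted p below 0.05, 2 in each direction, DESeq2 called 1, limma voom 0 and limma voom with library weights 5. None of these 6 lists had more than 1 call in a direction in edgeR with all libraries. Without library 3 at 0.1 µg/L 37.5% of all tested genes were called, and each of the 6 lists stayed below that share. In that fit 6 genes rose and 12 fell in cell cycle and replication, 11 fell in lens, and 7 rose and 11 fell in splicing and RNA binding. Growth factors then had 5 higher and 1 lower, cartilage and bone 3 higher and 4 lower, and thyroid and oestrogen 1 higher. Without library 4 at 10 µg/L, where 12.6% of all tested genes were called, 6 cell cycle genes, 4 lens genes, 5 splicing genes and 2 cartilage and bone genes fell. Further lists, not described above, had larger shares called lower with all libraries. They included ionocytes (6 of 24, 25%), erythrocytes (5 of 20, 25%), amino acid metabolism (11 of 66, 16.7%) and Nrf2 and redox genes (7 of 43, 16.3%). Without library 1 at 0.1 µg/L these calls numbered 0, 0, 1 and 0 in the same order.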

How the data were processed

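RNA came from flash frozen larvae by TRIzol, and directional libraries were built with dUTP from its polyadenylated part, per the labels' protocols. The authors deposited tables of raw read counts per gene, 1 table for each dose. GRCz11 is the build, and fastp, HISAT2, featureCounts and DESeq2 the tools, per the submitters' processing notes, which give no version or order. How strand was set in counting is not given in the sources used here. Overlapping genes, antisense pairs and close paralogs therefore have less certain counts. The deposited gene length column (unit other, per the file headers) served only for the trend with length.

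Tables were joined by gene identifier, and a gene missing from 1 table was given 0 reads there (10528 cells, in genes with at most 1 control read). Every count column was matched to a group (0 unmatched). Genes were filtered with filterByExpr, scaled by TMM and tested in edgeR 4.0.16 (R 4.3.3) by its robust quasi-likelihood F test. All 16 libraries were in 1 fit with 12 residual degrees of freedom, since 3 libraries alone estimate a spread poorly. That fit gives each gene 1 spread shared by all groups, and p-values rest on it. On the first principal component the 0.1 µg/L libraries lay farther apart than those at 10 µg/L. The fit of the compared groups alone called 154 genes. The test contrasts 10 with 0.1 µg/L, and Benjamini-Hochberg adjustment runs over all 19092 tested genes. The standard error comes from the F statistic, and log2 CPM for principal components used a prior count of 2. The fit was tested on simulated data in which all libraries shared the same gene levels, apart from 200 genes changed between the doses. No simulated library stood apart, so that test does not cover data with libraries like 1 and 2 at 0.1 µg/L. Replicates may be technical, and the standard errors and p-values cover only the spread between these libraries.

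The gene lists, the rule for named genes and the comparison were chosen with earlier results of these data known. Of 2604 list symbols 2420 matched a gene name and 26 a reference symbol, and 53 of the 54 lists had a tested member. The rule names, for each direction, the 10 largest called changes whose groups do not overlap and whose mean is at least 5 CPM, up to 4 called members with the lowest p of each list, genes called both with and without libraries 1 and 2 at 0.1 µg/L (0 genes, so the lowest p were taken), and some textbook or previously seen genes. Part of the genes so named are described. Alternatives were a fit of the compared groups alone, DESeq2 1.42.0, limma voom 3.58.1 with and without library weights, other scalings, no filter, libraries left out, and a block for the replicate number.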

Additional observations from a re-analysis of the deposited data

Results flagged for a closer look

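Among 93 named genes, 10 had 1 of the 5 libraries at 10 µg/L far from the other 4, by a gap above 0.71 of the group's range (Dixon's test). Chance does this in about 1 of 20 groups, and groups of 3, such as 0.1 µg/L, were not looked at. Library 3 at 10 µg/L was the one apart in 5 of the 10. It was highest in the clock gene cry3b (508 CPM, the others 240.2 to 299.5), in the melatonin gene aanat2 (26.4 CPM, the others 13.1 to 16.7), in tcap of the muscle sarcomere (8.36 CPM, the others 3.41 to 4.2) and in the fatty acid oxidation gene cpt1aa (56.2 CPM, the others 36.4 to 39.7). It was lowest in the kinase gene itpkcb, at 6.001 CPM, the others 8.91 to 9.54. Library 4 was highest in trib3 (54.2 CPM, the others 38.7 to 42.1) and lowest in mphosph10 (10.4 CPM, the others 14.9 to 15.8). Library 2 was lowest in irf9 (2.48 CPM, the others 4.05 to 4.62) and in lcp1 (2.79 CPM, the others 4.81 to 5.40), and library 1 highest in cmlc1 (7.48 CPM, the others 2.63 to 3.51).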

How the results depend on the processing

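The number of calls, 2025 with 623 higher and 1402 lower, stayed within 1.5 times of these values with limma voom, with DESeq2 size factors and with the length trend removed. DESeq2 called 3441 genes (1227 higher, 2214 lower), and limma voom with library weights 10551 (5625 higher, 4926 lower), where library 2 at 0.1 µg/L had a weight of 5.52 and library 3 of 0.22. Library size alone gave 1195 calls, 926 higher and 269 lower, and no filter on low counts gave 410 higher. The fit of the compared groups alone gave 154 calls, 17 higher and 137 lower. Leaving out 1 library gave 87 to 7162 calls, 13 to 4111 higher and 74 to 3051 lower, both extremes from libraries at 0.1 µg/L. Without libraries 1 and 2 at 0.1 µg/L, with or without library 3 at 10 µg/L, edgeR called 0 genes, 0 higher and 0 lower; 931 passed an unadjusted p of 0.05 without all 3, against 988 without the first 2. The cause of these shifts was not tested.

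Deviations of same-numbered libraries from their group means correlated at -0.26, -0.11 and -0.22. Deviations within a group sum to 0, so these values are not independent. At the lowest dose the libraries lay far apart, so the correlations cannot show or exclude pairing by replicate number. A fit with the replicate block, which has 2 residual degrees of freedom, called 0 genes, 0 higher and 0 lower (edgeR; 2481 at an unadjusted p below 0.05).

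Direction turned in 5 of the 93 named genes. With library size alone egr4 had a log2 fold change of 0.14. Without libraries 1 and 2 at 0.1 µg/L ndufa6 was at 0.023 and nefla at 0.089, and without library 3 at 10 µg/L as well ndufa6 was at 0.10, nefla at 0.058, rps24 at 0.0082 and eif2s2 at 0.047. Genes near 1 CPM, such as fbxl3l at 0.1 µg/L and grn2 at 10 µg/L, rest on few reads.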
